A study of Mus musculus with 6 samples.

Results

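The 8 genes described here encode the core of polyamine metabolism: the enzymes that make the polyamines (Odc1, Amd1, Srm, Sms), the enzyme that marks them for removal (Sat1), the antizymes (Oaz1, Oaz2) and an antizyme inhibitor (Azin1). They were chosen by name, and all 8 were found among the 37620 genes of the deposited count table and passed the filter on low counts. In GRCm38 they lie on chromosomes 12 (Odc1), 10 (Amd1 and Oaz1), 4 (Srm), X (Sms and Sat1), 9 (Oaz2) and 15 (Azin1). The series read total RNA of B cells from the spleens of C57Bl/6 mice aged 4 months. Every culture received 1 µg/ml anti-CD40 together with 12.5 µg/ml IL-4 and was exposed to retrovirus at 24 h and again at 48 h. Infected cells were collected by their mCherry signal at 96 h. The control group carried the vector pMIR (3 libraries) and the other group pMIR-Sox2 (3 libraries), so both groups share the stimulation, the infection and the sort. The sample descriptions give replicates 1 to 3 of both groups the numbers 8, 9 and 12 and do not say what these mark. Nothing in the labels ties a library to an animal, so the p-values reflect only how these samples vary, which may be technical.

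Polyamines (putrescine, spermidine and spermine) are small positively charged molecules that bind nucleic acids, and dividing lymphocytes make them in large amounts after activation. Ornithine decarboxylase, encoded by Odc1, makes putrescine, and the enzymes of Srm and Sms add aminopropyl groups, taken from S-adenosylmethionine after the enzyme of Amd1 has decarboxylated it, to give spermidine and then spermine. The pathway is governed largely after transcription: high polyamine levels let ribosomes shift frame on antizyme transcripts, antizyme carries ornithine decarboxylase to the proteasome, and the antizyme inhibitor binds antizyme in its place. Transcript counts read none of these later steps.

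Transcripts of ornithine decarboxylase, spermidine synthase and S-adenosylmethionine decarboxylase fell with Sox2, while those of spermine synthase and of the acetylating enzyme rose. Odc1, Srm and Amd1 were 1.78- to 2.48-fold lower in pMIR-Sox2, Sms was 1.73-fold and Sat1 4.50-fold higher, and the antizyme Oaz2 was 1.41-fold higher. Oaz1 and Azin1 did not pass the test. In all, 3 of the 8 genes fell and 3 rose, against 20% and 23.2% of the 12898 genes tested besides Sox2, and 43.2% in either direction. In 6 of the 8 genes every library of one group lay above every library of the other, as in 56.5% of all genes tested. The median log2 fold change of the 8 genes was −0.03, against −0.02 over all genes tested. Calls are those of edgeR's quasi-likelihood test at an adjusted p under 0.05, with Benjamini-Hochberg adjustment over all genes tested. In bulk RNA, fewer cells expressing a gene and less RNA of it per cell cannot be told apart.

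The sequences before the start sites of 4 of these genes are shown because the gene begins synthesis and fell (Odc1), rose the most (Sat1) or rose and holds a match to a Sox motif (Sms and Oaz2). RefSeq windows from 250 bases before to 50 after a start (GRCm38.p6) were found for 6 of the 8 genes, with 2 windows for Sms. The deposited counts were made with mm9, and the windows were used for their letters alone. Capitals mark exact matches on either strand to CACGTG (the E-box, bound by MYC and related factors), GGGCGG (the GC box) and ACAAAG or ACAATG (the core of Sox motifs), read 5′ to 3′ on the gene's strand.
Odc1, chr12:17544623-17544922, plus strand: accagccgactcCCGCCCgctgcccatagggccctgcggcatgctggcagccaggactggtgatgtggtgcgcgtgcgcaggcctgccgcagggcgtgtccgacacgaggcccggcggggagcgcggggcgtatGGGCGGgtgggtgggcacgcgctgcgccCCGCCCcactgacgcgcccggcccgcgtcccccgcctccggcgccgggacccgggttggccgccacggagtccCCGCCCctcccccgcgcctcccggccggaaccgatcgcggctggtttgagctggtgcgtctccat
Sat1, chrX:155216400-155216699, minus strand: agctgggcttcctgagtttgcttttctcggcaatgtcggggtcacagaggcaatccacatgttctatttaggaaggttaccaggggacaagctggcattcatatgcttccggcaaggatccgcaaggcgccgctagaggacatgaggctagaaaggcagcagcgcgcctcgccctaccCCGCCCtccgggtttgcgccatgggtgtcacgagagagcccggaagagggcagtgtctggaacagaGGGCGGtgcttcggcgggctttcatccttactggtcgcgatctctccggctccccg
Sms, chrX:157492238-157492537, minus strand: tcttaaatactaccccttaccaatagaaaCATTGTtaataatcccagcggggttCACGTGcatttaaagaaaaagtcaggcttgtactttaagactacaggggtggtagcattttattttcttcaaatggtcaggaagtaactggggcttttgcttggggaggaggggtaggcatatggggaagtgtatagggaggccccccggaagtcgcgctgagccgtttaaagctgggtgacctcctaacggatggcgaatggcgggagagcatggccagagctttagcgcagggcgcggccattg
Oaz2, chr9:65676298-65676597, plus strand: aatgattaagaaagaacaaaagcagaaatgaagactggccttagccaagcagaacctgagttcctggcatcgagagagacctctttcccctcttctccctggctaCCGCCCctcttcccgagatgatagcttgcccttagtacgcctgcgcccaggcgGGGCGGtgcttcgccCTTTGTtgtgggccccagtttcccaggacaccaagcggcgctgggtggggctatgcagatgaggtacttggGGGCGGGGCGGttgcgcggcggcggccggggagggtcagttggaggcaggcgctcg
The Odc1 window held 4 GC boxes and the Sat1 window 2, and neither held an E-box or a Sox core. The Sms window held 1 E-box, beginning 196 bases before the start, and 1 Sox core, beginning 221 bases before it, with no overlap between them. The other Sms window held 4 GC boxes, some overlapping each other, and neither of the other motifs. The window of Amd1 held 1 GC box only, and that of Oaz1 none of the motifs. The Oaz2 window held 4 GC boxes, a pair of them overlapping, and 1 Sox core, beginning 77 bases before the start. This window lies inside the gene, which in GENCODE M21 begins at position 65668001, so its start is not the first of Oaz2. Of all windows of these 6 genes (2 for Sms and 1 for each other gene), 1 held an E-box and 2 held a Sox core. A window of each gene but Oaz1 held a GC box. Among 32841 RefSeq windows of the same length, 7.15% held an E-box, 28.6% a Sox core and 35.7% a GC box. Whether the windows of these genes differ from those shares was not tested. Bases outside the windows were not searched, so a motif absent from a window may lie elsewhere in the gene. A match describes these letters only and was not tested for binding.

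Levels below are CPM, gene counts scaled to the library's TMM-adjusted size, and are relative. Depth was 21421769 to 27692437 gene counts a library for pMIR and 17153805 to 20770447 for pMIR-Sox2. Sox2, the gene the vector adds, had at most 37 counts in a pMIR library and 989, 786 and 624 CPM in replicates 1 to 3 of pMIR-Sox2, which goes with the labels. The summed level of 8 B cell markers was 4002 to 5145 CPM in pMIR and 2836 to 3401 CPM in pMIR-Sox2. Of these markers 5 fell and 1 (Pax5) rose, against 20% and 23.2% of all genes tested. Markers of T cells summed to at most 1.92 CPM and of NK cells to at most 0.276 CPM in any library, with Ncr1 at 0. The 8 myeloid markers summed to 18.4 to 21.8 CPM in pMIR and 29.8 to 36.5 CPM in pMIR-Sox2, most of it Emr1 (17.0 to 20.5 and 25.4 to 30.3 CPM). Of 4 myeloid markers tested 3 rose, against 23.2% of all genes tested. Besides Emr1 these were Itgam, with 0.479 to 0.620 CPM in pMIR and 3.19 to 4.98 CPM in pMIR-Sox2, and Lyz2, with at most 0.0480 and 0.541 to 0.781 CPM. The other, Csf1r, went the other way and did not pass, with 0.524 to 0.738 CPM in pMIR and 0.276 to 0.541 CPM in pMIR-Sox2. Fcgr1, not tested, had at most 0.184 CPM in pMIR and 0.138 CPM in pMIR-Sox2, and S100a8 and S100a9 were at 0. Red cell markers summed to 0.810 to 1.01 CPM in pMIR and 1.52 to 2.54 CPM in pMIR-Sox2, with Hba-a1, Hba-a2 and Hbb-b1 at 0. The 1 red cell marker tested, Hbb-bt, rose (log2 fold change 1.28, edgeR adjusted p = 0.00855). It had 0.627 to 0.816 CPM in pMIR and 1.42 to 2.43 CPM in pMIR-Sox2. The part of these markers in the results below was not tested.

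Odc1, the first and rate-limiting enzyme of synthesis, had 358, 301 and 294 CPM in replicates 1 to 3 of pMIR. The same replicates of pMIR-Sox2 had 149, 121 and 170 CPM. All pMIR-Sox2 libraries lay far below all pMIR libraries, with replicate 2 the lowest. This gave a log2 fold change of −1.11 ± 0.14 (SE, 95% interval −1.44 to −0.79, adjusted p = 0.000389 by edgeR). Of the genes tested, 13.9% had a larger change in size.

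Srm, spermidine synthase, had the largest fall of the 8 genes and the widest spread in pMIR. Its levels were 205, 114 and 180 CPM in pMIR and 71.7, 41.2 and 88.4 CPM in pMIR-Sox2, again in replicate order. The groups did not overlap, but replicate 2 was the lowest library of either group, and the SD was 28.4% of the mean in pMIR and 35.6% in pMIR-Sox2. The log2 fold change was −1.31 ± 0.29 (SE, 95% interval −1.96 to −0.66, edgeR adjusted p = 0.00609). With no filter on low counts, which adds low genes to the fit, the adjusted p was 0.0940.

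Amd1, S-adenosylmethionine decarboxylase, whose product supplies the aminopropyl groups, fell. It was read at 40.8, 32.1 and 40.3 CPM in pMIR and at 21.0, 16.9 and 25.8 CPM in pMIR-Sox2. The groups did not overlap, and replicate 2 was again the lowest of each group. Its log2 fold change was −0.83 ± 0.17 (SE, edgeR adjusted p = 0.00368). Amd1 has near-identical copies, and 87.6% of the 50-base stretches of its longest coding transcript in GENCODE M21 also occur in other genes. Since alignments that were not unique were not counted to genes, its level is uncertain and may be understated. The length of 50 bases was chosen without knowing the read length, and longer reads would share less. Its copy Amd2 had 5 to 12 counts per library and was not tested.

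Sms, spermine synthase, which uses the product of Srm, rose. Its levels were 103, 80.5 and 93.4 CPM in pMIR and 168, 166 and 145 CPM in pMIR-Sox2. The lowest pMIR-Sox2 library, replicate 3, was still well above the highest pMIR library. On the log2 scale the rise was 0.79 ± 0.12 (SE, 95% interval 0.53 to 1.06, edgeR adjusted p = 0.000759).

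Sat1, the acetyltransferase that tags spermidine and spermine for export or oxidation, changed the most. It was read at 35.3, 47.1 and 40.1 CPM in pMIR and at 187, 242 and 122 CPM in pMIR-Sox2. Every pMIR-Sox2 library was over the highest pMIR library by a wide margin, and pMIR-Sox2 replicate 3 was the lowest and replicate 2 the highest of its group. On the log2 scale the rise was 2.17 ± 0.23 (SE, 95% interval 1.64 to 2.70, edgeR adjusted p = 0.000175). Only 4.40% of the genes tested had a larger change in size.

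Of the antizymes, Oaz2 passed the test and Oaz1 did not. Oaz1, the antizyme most abundant here, was read at 176, 162 and 167 CPM in pMIR and at 165, 188 and 172 CPM in pMIR-Sox2, with overlapping groups. Its log2 fold change was 0.06 ± 0.10 (SE, edgeR adjusted p = 0.659), and the 95% interval of −0.16 to 0.28 holds changes in either direction. Of its 50-base stretches 52.2% occur in another gene, a processed copy, so its level may be understated.

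Oaz2, a second antizyme with the same target, was read at 25.1, 26.5 and 23.9 CPM in pMIR. In pMIR-Sox2 it was read at 32.2, 42.1 and 31.9 CPM, all above the pMIR libraries, with replicate 2 the highest. The log2 fold change was 0.49 ± 0.13 (SE, 95% interval 0.19 to 0.79, edgeR adjusted p = 0.0147). This call was lost without pMIR replicate 1 (adjusted p = 0.0520) and without pMIR replicate 3 (0.0619), in fits with no block. With all libraries and the replicate block Oaz2 passed (edgeR adjusted p = 0.00118).

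Azin1, which resembles ornithine decarboxylase but has no such activity and releases it from antizyme, was read at 135, 138 and 132 CPM in pMIR. In pMIR-Sox2 it was read at 118, 111 and 146 CPM. The pMIR libraries lay close together, with an SD of 2.47% of the mean, and the pMIR-Sox2 libraries lay on both sides of them. The log2 fold change was −0.11 ± 0.12 (SE, 95% interval −0.38 to 0.15, edgeR adjusted p = 0.458). The antisense gene model Gm49077 overlaps 5.72% of its exons, and without a stated strand setting reads of the 2 cannot be told apart.

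**Figure D1:**
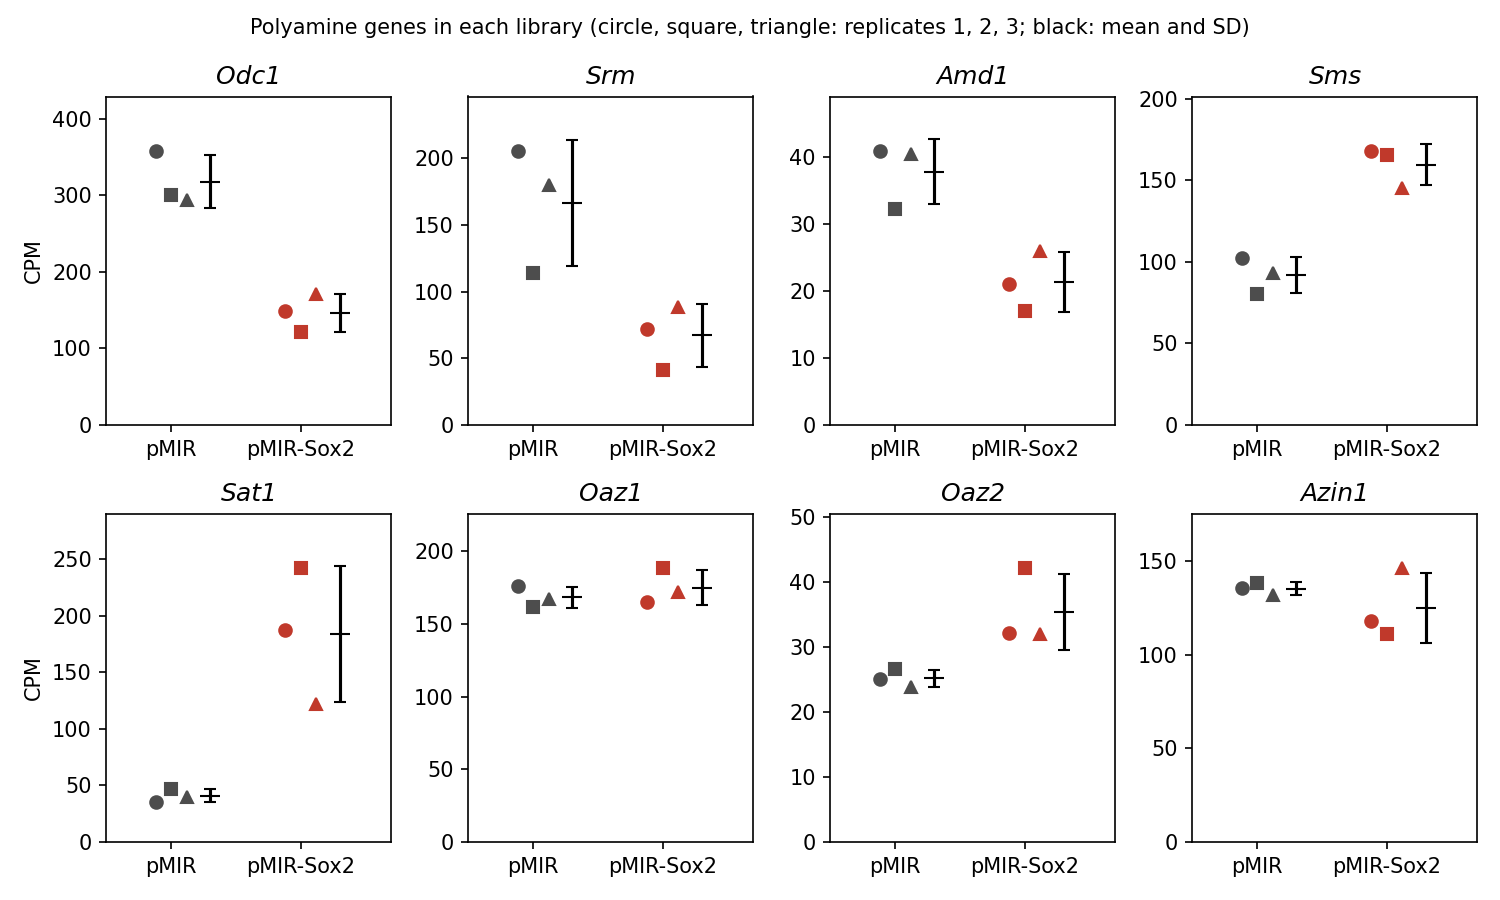
CPM of the 8 genes in each of the 6 libraries, grey for pMIR and red for pMIR-Sox2, with circles, squares and triangles for replicates 1, 2 and 3 and black bars for the mean and SD. The groups are apart in Odc1, Srm, Amd1, Sms, Sat1 and Oaz2 and overlap in Oaz1 and Azin1.

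Libraries of the same replicate number deviated together from their group means, so the differences were also read within each number on the log2 CPM scale. Sat1 differed by 2.40, 2.36 and 1.60 in pairs 1 to 3. Odc1 differed by −1.26, −1.32 and −0.79, and Srm by −1.52, −1.46 and −1.03. In Odc1, Srm, Amd1, Sms and Sat1 the difference of pair 3 was the smallest of the 3, and in Oaz2 that of pair 1 (0.36) was. Pair 3 holds the pMIR-Sox2 library with the lowest Sox2 level. By CPM within the group, replicate 1 had the most Sox2, and replicate 2 the lowest Odc1, Srm and Amd1 and the highest Sat1 and Oaz2. By pair, the differences of Sat1, Srm and Amd1 (−0.95, −0.92 and −0.64) shrank from pair 1 to pair 3, the order of the Sox2 levels. In Odc1, Sms and Oaz2 the difference was largest in pair 2. With 3 libraries no relation to the Sox2 level was tested. Oaz1 (−0.09, 0.22 and 0.04) and Azin1 (−0.20, −0.32 and 0.15) went in both directions. The replicate block changed the call of none of the 8 genes.

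**Figure D2:**
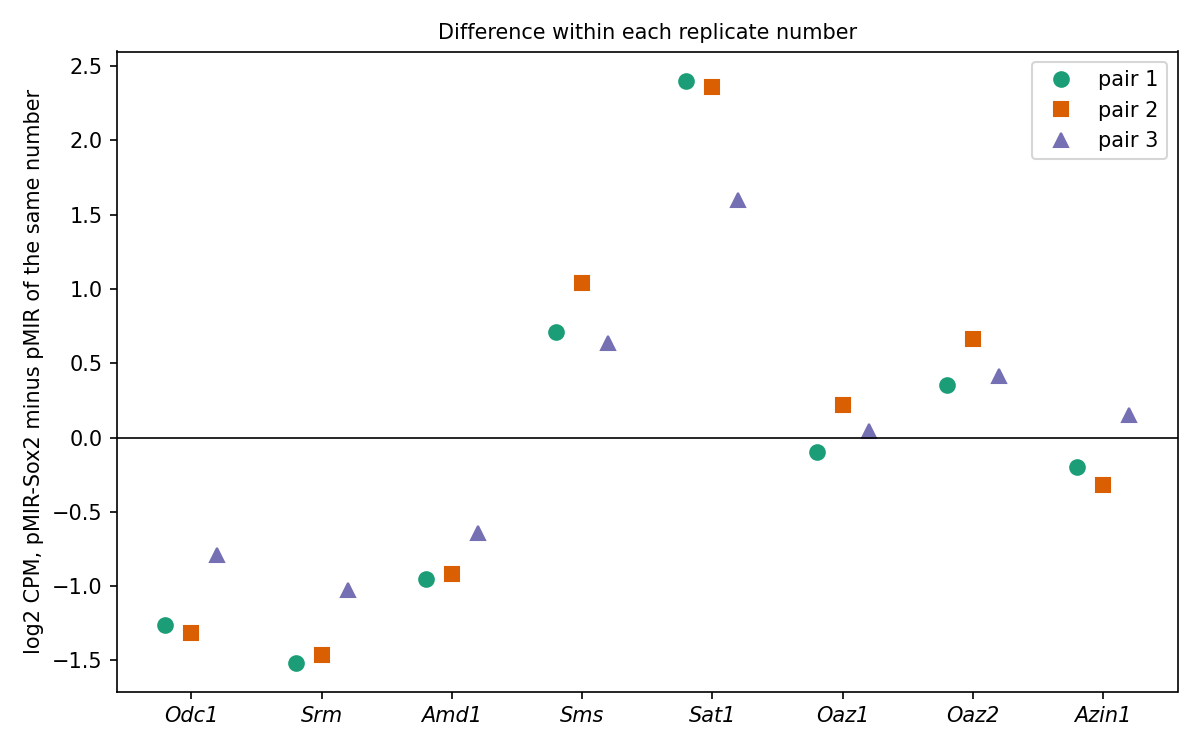
Difference in log2 CPM (vertical axis) between the pMIR-Sox2 and pMIR libraries of the same replicate number, for each of the 8 genes (horizontal axis). Sat1 spans 1.60 to 2.40 and Srm −1.52 to −1.03, while the points of Oaz1 and Azin1 lie on both sides of 0.

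Ratios of the genes within a library do not depend on how libraries are scaled. Counts of Odc1 over Oaz1, the enzyme over the antizyme that removes it, were 2.03, 1.86 and 1.76 in pMIR and 0.903, 0.641 and 0.990 in pMIR-Sox2. Every pMIR library was above every pMIR-Sox2 library. The mean log2 ratio was 0.91 ± 0.10 (SD, n = 3) in pMIR and −0.27 ± 0.33 in pMIR-Sox2, a 2.26-fold difference. As lengths differ between genes, such a ratio is read between libraries and not as more of one gene than another. Odc1 over Azin1 was 2.64, 2.17 and 2.23 in pMIR and 1.26, 1.09 and 1.17 in pMIR-Sox2, a 2.00-fold difference.

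Sat1 over Srm, removal over synthesis of spermidine, was 0.172, 0.414 and 0.223 in pMIR and 2.61, 5.87 and 1.38 in pMIR-Sox2. The group means differed by 3.46 on the log2 scale, the widest of the 5 ratios, and replicate 2 was the highest library of each group. Srm over Sms went from 2.00, 1.41 and 1.93 to 0.427, 0.249 and 0.608, a 4.39-fold difference, with the lowest values again in replicate 2. Oaz2 over Oaz1 was 0.143, 0.164 and 0.143 in pMIR and 0.195, 0.224 and 0.185 in pMIR-Sox2, a 1.34-fold difference. In all 5 ratios the groups did not overlap. A two-sided exact permutation test gave p = 0.1 for each (0.1 adjusted over the 5), the smallest that 3 libraries against 3 allow, so none can pass 0.05.

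**Figure D3:**
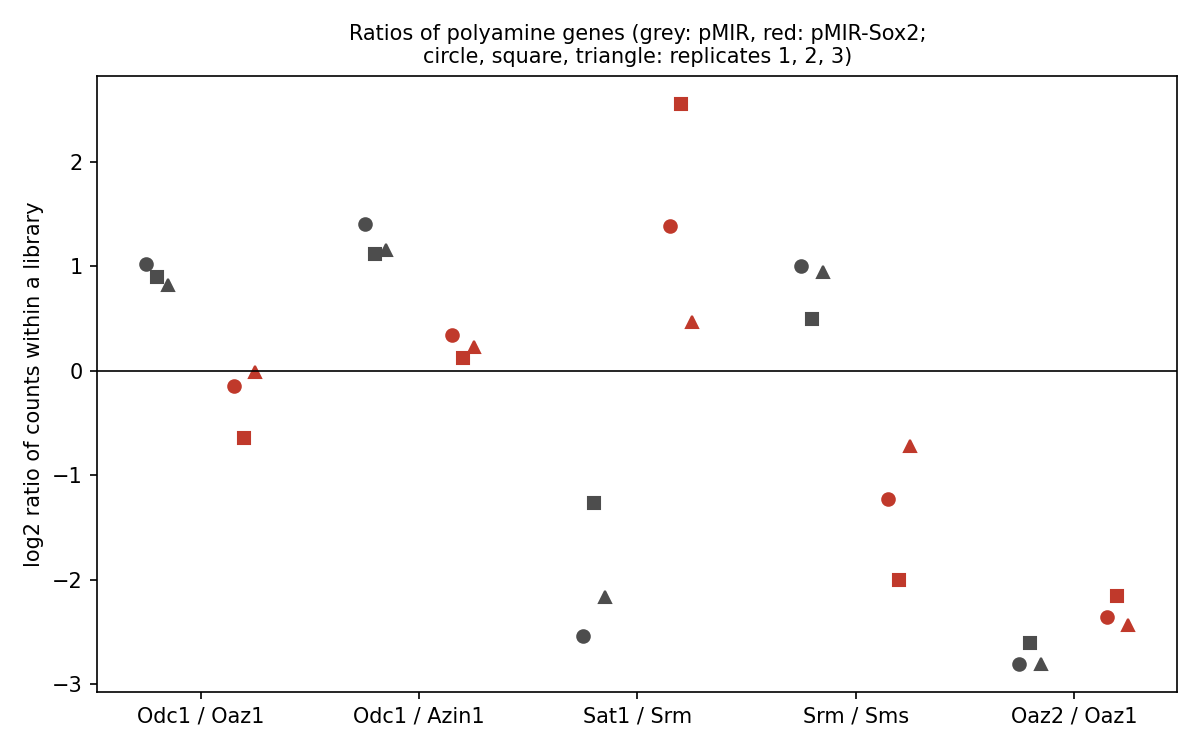
Log2 ratio of the counts of 2 genes within a library (vertical axis) for 5 gene pairs, grey for pMIR and red for pMIR-Sox2, symbols by replicate. In each ratio the 3 pMIR libraries are apart from the 3 pMIR-Sox2 libraries, with the widest gap of group means, 3.46, in Sat1 over Srm.

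To compare levels between genes, CPM were divided by the length of all exons of the gene in GENCODE M21 (CPM per kb). In pMIR, Srm (104 ± 29.6, SD, n = 3) and Odc1 (93.3 ± 10.2) were highest, and their libraries overlapped. Oaz1 (65.8 ± 2.78 CPM per kb) and Azin1 (21.6 ± 0.534) came next, then Sms (15.3 ± 1.85) and Sat1 (14.7 ± 2.15), whose libraries overlapped. Amd1 (10.7 ± 1.38) and Oaz2 (8.43 ± 0.441) were lowest, and all other neighbours in this order were apart. In pMIR-Sox2 the order was Oaz1 (68.5 ± 4.72 CPM per kb), Sat1 (66.2 ± 21.7), Odc1 (43.1 ± 7.31), Srm (42.0 ± 15.0), Sms (26.6 ± 2.06), Azin1 (19.97 ± 2.97), Oaz2 (11.8 ± 1.94) and Amd1 (6.00 ± 1.26). There the libraries of neighbours overlapped from Oaz1 to Sms and were apart from Sms downwards. By this length, Sat1 stood among the lower genes in pMIR and beside Oaz1 in pMIR-Sox2. The orders depend on the length used. All exons of Oaz1 and Sat1 span 2.558 and 2.774 kb, while their longest coding transcripts have 1071 and 1162 bases. For Srm these lengths are 1.599 kb and 1338 bases. Dividing by transcript length would therefore raise Oaz1 and Sat1 more than Srm, and the places of these genes can change. Since alignments that were not unique were not counted to genes, both orders also hold for uniquely counted reads only. The share of 50-base stretches found in other genes was 87.6% in Amd1, 52.2% in Oaz1, 42.2% in Odc1 and 28.7% in Sms, against 2.40% in Srm, 7.28% in Sat1, 12% in Oaz2 and 6.43% in Azin1. The Azin1 share is with Gm49077, which overlaps its exons, and not with a copy elsewhere. The place of Amd1 at the low end therefore cannot be read as its place among the transcripts.

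Likeness to Odc1 was measured as the root mean square distance of centred log2 CPM over the 6 libraries. Of the other members, Amd1 lay nearest at 0.18 log2 units, with 135 of 6944 genes nearer, and Srm at 0.31, with 692 nearer. The 6944 are genes with a mean of at least 20 CPM, leaving out Odc1, pseudogenes and predicted genes (Gm or Rik names). These distances are descriptions over libraries that share the group difference.

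A wider list of 30 genes covered precursor supply, other catabolic enzymes, salvage of the methylthioadenosine that synthesis releases, the hypusine modification of eIF5A (which uses spermidine) and transport. Of these, 21 were tested, 8 fell, 3 rose and 10 did not pass, so that 52.4% were called, against 43.2% of all genes tested. Their median log2 fold change was −0.26, against −0.02 over all genes. The number that fell was 13 with the replicate block and 5 without pMIR replicate 1. Over all genes tested 3314 fell with the block and 1783 without pMIR replicate 1, against 2577 in the main test. The block added calls for Oat, Mat2b, Enoph1, Adi1 and Slc12a8 among those that fell, and for Atp13a2 among those that rose (adjusted p = 0.0346). It removed no call of this list.

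Azin2 (named Adc in the table), a second antizyme inhibitor, had the largest fall of the list. Its level of 22.1 ± 3.04 CPM in pMIR (SD, n = 3) compares with 7.55 ± 0.817 CPM in pMIR-Sox2, a log2 fold change of −1.55 ± 0.15 (SE, edgeR adjusted p = 0.000107). Whether Azin2 and Azin1 differed from each other in their change was not tested. Among transporters, Slc7a1, which imports arginine and ornithine, fell from 208 ± 21.3 to 116 ± 21.9 CPM (−0.84 on the log2 scale). Slc3a2, the heavy chain shared by several amino acid transporters, fell from 197 ± 13.6 to 100.4 ± 26.7 CPM (−0.97). Atp13a3, a P5B-type ATPase linked to polyamine uptake, rose from 136 ± 4.97 to 269 ± 47.3 CPM (0.98). Slc18b1, a vesicular polyamine transporter, rose from 0.394 ± 0.123 to 1.08 ± 0.379 CPM (1.45), with only 6 to 11 counts per library in pMIR and 14 to 28 in pMIR-Sox2. Slc18b1 did not pass without pMIR replicate 1 (adjusted p = 0.0550) or without pMIR-Sox2 replicate 2 (0.0597).

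Both genes of the hypusinated factor were called, in opposite directions. Eif5a, the abundant one, fell from 1276 ± 222 to 780 ± 176 CPM (−0.71), and Eif5a2 rose from 17.9 ± 1.63 to 27.5 ± 4.13 CPM (0.62). Dohh, which completes the modification, fell from 47.2 ± 5.41 to 34.2 ± 3.35 CPM (−0.47), while Dhps, which begins it, did not pass (−0.25, adjusted p = 0.0909). Dohh shares 66.2% of its 50-base stretches with Gm48551. That gene model overlaps 47.5% of the Dohh exons on the same strand and is absent from the deposited counts. Without pMIR replicate 1 neither Eif5a (adjusted p = 0.0633) nor Dohh (0.0606) passed.

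Of the 5 salvage enzymes 2 fell (Mtap and Mri1), against 20% of all genes tested, and 3 did not pass. With the replicate block 4 of the 5 fell, as Enoph1 (−0.34, adjusted p = 0.0164) and Adi1 (−0.26, 0.0457) then passed by edgeR. The block also raised the number that fell among all 12898 genes tested, from 2577 to 3314. Mtap, which begins the salvage, fell from 60.5 ± 7.91 to 37.4 ± 8.23 CPM (−0.70). Mri1, the isomerase of the salvage, fell from 34.96 ± 2.90 to 25.4 ± 2.98 CPM (−0.46, edgeR adjusted p = 0.0137). Mri1 did not pass without pMIR replicate 3 (adjusted p = 0.0605) or without pMIR-Sox2 replicate 1 (0.0532). Of the genes that supply precursors, Mat2a, which makes S-adenosylmethionine, fell from 182 ± 26.5 to 122 ± 24.7 CPM (−0.57). Mat2a did not pass without pMIR replicate 1 (adjusted p = 0.0796) or without pMIR replicate 3 (0.0533), and a gene model on the other strand overlaps 11.3% of its exons. The oxidases Smox and Paox, which act on spermine and on the acetylated polyamines, were low at 4.89 to 5.80 CPM by group mean and did not pass (−0.16 and −0.17). Arg1 and Arg2, the arginases that make ornithine, had at most 8 counts in any library and were not tested.

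**Figure D4:**
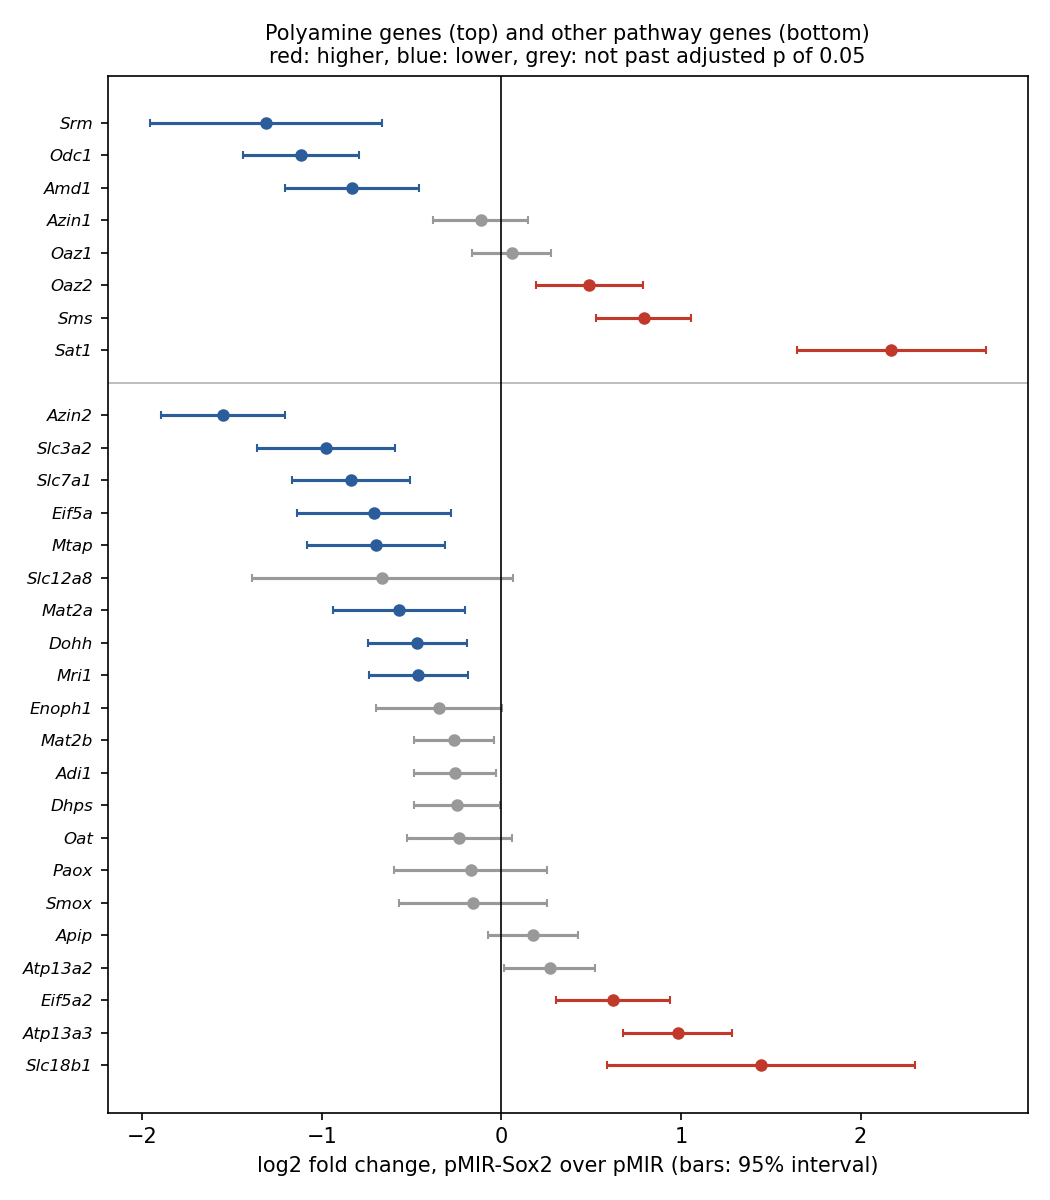
Log2 fold change of pMIR-Sox2 over pMIR (horizontal axis) with its 95% interval for the 8 genes (top) and the 21 tested genes of the wider list (bottom), blue for fell, red for rose and grey for not past the test. The members run from Srm at −1.31 to Sat1 at 2.17, and the wider list from Azin2 at −1.55 to Slc18b1 at 1.45.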

How the data were processed

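Total RNA of 6 libraries was analysed, with groups and replicate numbers taken from the sample titles. The authors deposited raw counts per Ensembl gene, and per the submitters' processing notes HTSeq 0.6.1p1, SAMtools 0.1.19, Bowtie2 2.2.2, TopHat2 2.0.11, Trimmomatic 0.32 and mm9 were involved, with no role stated. Read length, annotation release and strand setting are not given in the sources used here. Lines of the table that name no gene (46.8 to 48.1% of a library's total, with 23.1 to 26.5% of the total in the line for non-unique alignments) stayed out of library sizes and tests.

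The 8 genes, the wider list and the tests were chosen with earlier results of these data known. That Odc1 falls was among those results. All 8 genes and every tested gene of the wider list among the 10 largest changes past the threshold were to be named, and Mri1, Dhps, Smox, Paox, Arg1, Arg2 and the genes called with the block alone were added after their values were seen. The genes nearest to Odc1 in pattern are not reported here. The gene test was edgeR 4.0.16 under R 4.3.3 (filterByExpr, TMM, robust quasi-likelihood fits without a block) over 12899 genes, Sox2 being left out of counts. SE is the log2 fold change over the square root of F. Intervals are at 95%. Alternatives were DESeq2 1.42.0, limma-voom (limma 3.58.1), RLE factors, library totals, no filter, a replicate block and leaving out each library. Deviations from the group means correlated at 0.24, 0.36 and 0.19 between same-numbered libraries (numbers 1 to 3) and at −0.24 to 0.03 between others, so the numbers were taken to pair the libraries. The reference, GENCODE M21 on GRCm38, gave exon lengths and shared 50-base stretches, and Azin2 and Slc18b1 were matched by Ensembl identifier.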

Additional observations from a re-analysis of the deposited data

How the results depend on the processing

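All 8 genes kept the direction of their change under each of the 12 alternatives. Odc1, Amd1, Sms and Sat1 kept their calls under all of them, with log2 fold changes of −1.23 to −0.99, −0.98 to −0.69, 0.70 to 0.87 and 1.92 to 2.40. Oaz1 and Azin1 passed under none. The number of the 8 genes that fell was 2 with no filter and 3 otherwise, and the number that rose was 2 without pMIR replicate 1 or 3 and 3 otherwise. In the wider list the number that fell was 13 with the replicate block and 5 to 9 when 1 library was left out, and it was 8 with the other alternatives. The number that rose there was 2 to 4. Over all genes 1783 to 3314 fell and 2362 to 3486 rose. With the replicate block no call of the 8 genes changed. The log2 ratios kept their sign without each library, with 2.92 to 3.96 for Sat1 over Srm and −1.31 to −0.99 for Odc1 over Oaz1. Groups of 3 limit what the tests can show, and Slc18b1 is limited by its low counts.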
